A study of Mus musculus with 4 samples.

Results

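The 9 genes of the cytotoxic granule and effector programme described here, Gzma, Gzmb, Gzmc, Gzmk, Prf1, Nkg7, Ifng, Fasl and Tnfsf10, were followed through immune cells of the mouse nasal mucosa. They were chosen by symbol, with no measured value in the rule, and all 9 were found among the 27998 genes listed in every library. The study profiled CD45+ cells of C57BL/6 mice aged 8 weeks by droplet-based single-cell RNA sequencing, in 4 libraries, 1 per group. The Vehicle group received the vehicle and the Ribavirin group received ribavirin, an antiviral nucleoside analogue that the series title calls a spray directed at commensal nasal viruses. The Vehicle-OVA and Ribavirin-OVA groups received the same agents and ovalbumin (OVA), with which, by the study's methods, mice were sensitised with alum and then challenged through the nose. None of the 4 groups carried a transgene or a deletion, the number of mice behind each library is not given in the sources used here, and cells were taken by a sort or column for CD45. With 1 library per group no comparison between groups had a replicate, so no test and no p-value is given, and every interval below covers counting error only, since UMIs of 1 cell are not independent of each other.

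Killer lymphocytes store granzymes, a family of serine proteases, in lysosome-like granules together with perforin. On contact with a target cell the granules are released, perforin opens the target's membrane, and the granzymes that enter cleave substrates that lead to death. The same lymphocytes also carry death ligands of the TNF family, which bind receptors on the target, and secrete interferon gamma, which acts on macrophages and other neighbours. Natural killer (NK) cells hold granzyme and perforin transcripts before activation, whereas most T cells acquire them after activation, CD8+ T cells above all. In the airway mucosa these cells are best known from defence against viruses, and in OVA-driven allergic inflammation most attention goes to type 2 cytokines made by CD4+ T cells and innate lymphoid cells.

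All 9 genes are annotated as protein coding in the mouse genome (GRCm38, GENCODE M21). Gzmb (chr14:56258838-56262260, minus strand) encodes the granzyme that cleaves after aspartate and activates caspases, and Gzmc (chr14:56231441-56234656, minus strand), a granzyme of activated killer cells, lies in the same cluster. Gzma (chr13:113093825-113100981, minus strand) encodes a tryptase found in most NK cells, and Gzmk (chr13:113171608-113225908, minus strand) encodes a related tryptase found mainly in T cells. This GENCODE model of Gzmk overlaps Esm1 on the opposite strand, and whether counting used strand is not given in the sources used here. Whether a shorter model of Gzmk overlaps Esm1 was not tested. Gzmc has close copies in the chr14 cluster (Gzmd, Gzme, Gzmf, Gzmg and Gzmn), so reads of these genes can be hard to assign and the Gzmc values are uncertain. Prf1 (chr10:61297833-61304680, plus strand) encodes perforin, and Nkg7 (chr7:43437073-43438249, plus strand) encodes a granule membrane protein that takes part in granule release. Ifng (chr10:118441046-118445892, plus strand) encodes interferon gamma. Fasl (chr1:161780689-161788495, minus strand) encodes Fas ligand, and Tnfsf10 (chr3:27317028-27342427, plus strand) encodes TRAIL.

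The promoters of Gzma, Gzmb, Gzmk and Prf1 are shown because these were the 4 members past 2-fold higher in T cell-like cells of Vehicle-OVA than in those of Vehicle, as described below. Each run is the 250 bases before the RefSeq start of the gene (GRCm38.p6), read in the gene's direction, with motif matches in capitals. The Gzmk run lies inside the GENCODE span given above, because the RefSeq and GENCODE models place the start of Gzmk differently.
Gzma, chr13:113100982-113101231, minus strand: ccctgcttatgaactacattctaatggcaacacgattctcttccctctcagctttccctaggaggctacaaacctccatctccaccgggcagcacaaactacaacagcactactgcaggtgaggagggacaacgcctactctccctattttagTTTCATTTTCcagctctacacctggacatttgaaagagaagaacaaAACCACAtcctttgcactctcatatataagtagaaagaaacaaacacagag
Gzmb, chr14:56262335-56262584, minus strand: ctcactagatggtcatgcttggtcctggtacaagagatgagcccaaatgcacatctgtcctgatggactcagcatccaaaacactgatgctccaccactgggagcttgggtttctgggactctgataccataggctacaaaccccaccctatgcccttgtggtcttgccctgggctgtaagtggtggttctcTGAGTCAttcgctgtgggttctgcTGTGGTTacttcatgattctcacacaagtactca
Gzmk, chr13:113180966-113181215, minus strand: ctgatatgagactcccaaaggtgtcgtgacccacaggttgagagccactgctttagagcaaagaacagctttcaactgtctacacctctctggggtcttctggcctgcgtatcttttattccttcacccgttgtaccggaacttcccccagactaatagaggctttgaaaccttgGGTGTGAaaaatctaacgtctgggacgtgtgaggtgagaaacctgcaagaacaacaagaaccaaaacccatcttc
Prf1, chr10:61297586-61297835, plus strand: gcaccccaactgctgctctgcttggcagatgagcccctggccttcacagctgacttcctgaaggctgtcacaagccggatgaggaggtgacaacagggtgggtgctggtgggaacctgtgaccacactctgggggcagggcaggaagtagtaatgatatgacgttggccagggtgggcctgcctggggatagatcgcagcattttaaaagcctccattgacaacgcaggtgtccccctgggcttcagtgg
The 6 motifs below were searched on both strands, and no 2 matches in these promoters overlapped. The RUNX motif was spelled TGTGGTT and was held by 4.40% of 32851 mouse promoters of the same length. For T-box factors the letters were GGTGTGA, held by 3.33% of promoters. For AP-1 they were TGANTCA, where N is any base, held by 6.75% of promoters. The GATA motif, AGATAA, was held by 9.99% of promoters, and the STAT motif, TTCNNNGAA, by 7.02%. The sixth, the interferon-stimulated response element, was held by 2.98%. The Gzma promoter held the RUNX motif on the minus strand at base -51 from the start and the interferon-stimulated response element on the minus strand at base -97. The Gzmb promoter held the RUNX motif at base -34 and the AP-1 motif at base -58. The Gzmk promoter held the T-box motif at base -75, and the Prf1 run held none of the 6. Among the other members the Nkg7 promoter held the T-box and STAT motifs, Ifng the STAT motif and Gzmc the RUNX motif, while Fasl and Tnfsf10 held none. A match describes letters only.

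The libraries held 10311 to 28277 cells and 91742940 to 171873110 UMIs, and 8475 to 22831 cells per library (66088 in all) were kept. Any 2 libraries shared 57 to 174 cell barcodes, at most 0.909% of the smaller one. The kept cells fell into 41 clusters, which were given 13 class names from markers, apart from 10 that stayed unnamed. Neutrophil-like cells made up 58.1% of Vehicle-OVA and 15.4 to 22.6% of the other 3 libraries. NK-like cells made up 3.46% of Vehicle and 1.15% of Vehicle-OVA, against 3.78% of Ribavirin and 2.54% of Ribavirin-OVA, and T cell-like cells 23.4, 5.50, 18.6 and 11.2% in that order. Levels below are given as CPM, the UMIs of a gene for every 1000000 UMIs summed over the cells named, with exact 95% Poisson intervals. Levels are compared between cells and libraries and not between genes. In groups without OVA and with OVA the NK-like and T cell-like classes were made of different clusters, which are named beside the values.

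Lymphocytes carried most of the members' UMIs. Clusters of lymphocytes held 85.4 to 98.8% of the UMIs of each member in each library, with the exceptions of Gzmb in Ribavirin-OVA (56.0%) and of Tnfsf10 (57.4 to 72.7%). NK-like cells held 69.8% of the Gzma UMIs of Vehicle, 55.2% of those of Vehicle-OVA, 79.2% of those of Ribavirin and 71.0% of those of Ribavirin-OVA. For Prf1 the NK-like share was 77.8, 35.4, 79.5 and 58.7% in the same order of libraries, lowest in Vehicle-OVA. Gzmk lay in the other arm, with 92.6, 93.5, 82.2 and 90.9% of its UMIs in T cell-like cells. T cell-like cells also held 85.1% of the Ifng UMIs of Vehicle and 78.1% of those of Ribavirin, against 61.9% in Vehicle-OVA and 49.4% in Ribavirin-OVA. In the OVA libraries an unnamed cluster led by Cd163l1 and Zbtb16 held a further 26.7% and 34.3% of the Ifng UMIs.

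**Figure D1:**
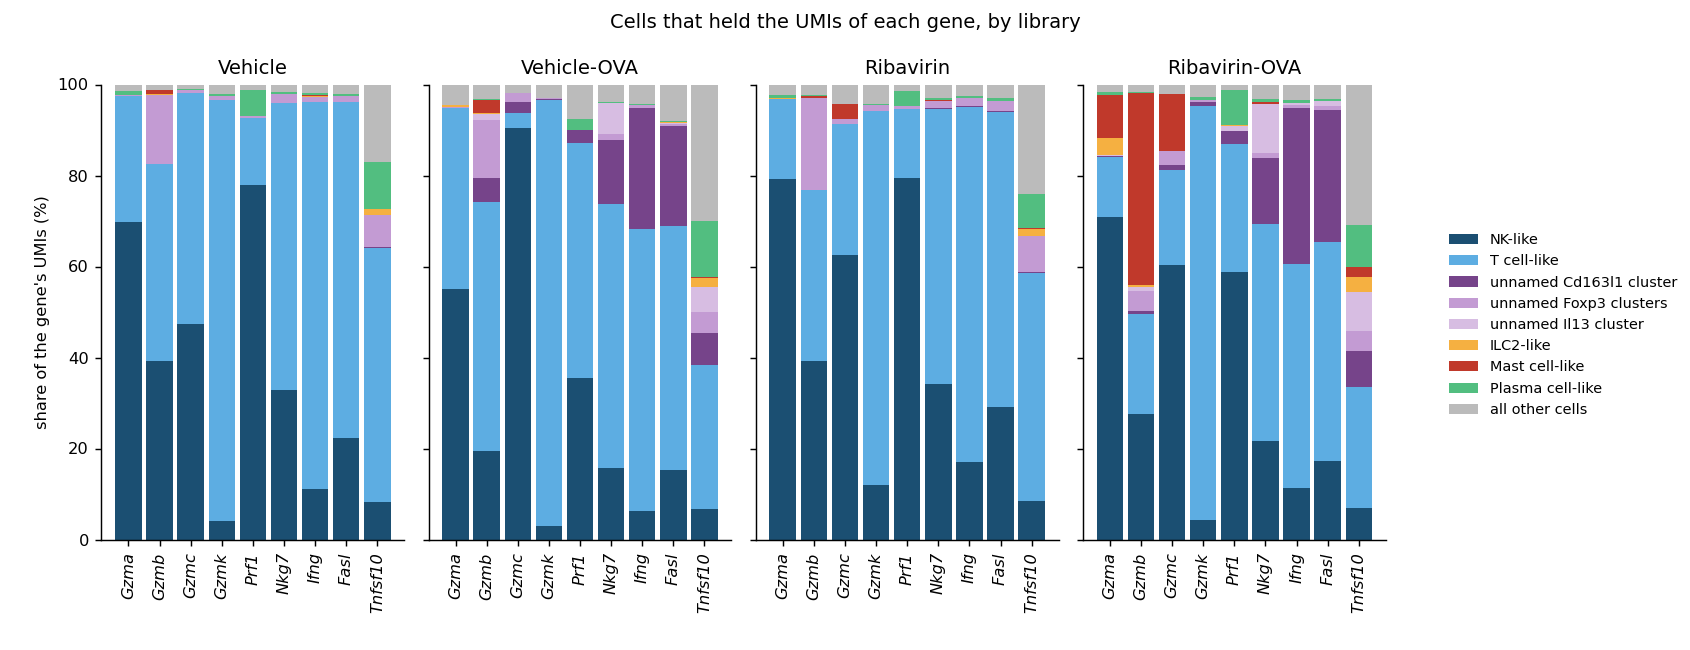
Share of each member's UMIs (percent, stacked bars from 0 to 100) by the cell class that held them, for the 4 libraries. Gzma and Prf1 UMIs lay mostly in NK-like cells except Prf1 in Vehicle-OVA (35.4%), and Gzmk UMIs lay in T cell-like cells (82.2 to 93.5%).

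Among the named classes with at least 50 cells in a library, 8 of the 9 members were highest in NK-like or T cell-like cells in Vehicle and Ribavirin, and all 9 in both OVA libraries. Gzma, Gzmc, Prf1 and Nkg7 were highest in NK-like cells in all 4 libraries, with intervals that did not reach those of the next class. For Gzmc the levels of Vehicle and Vehicle-OVA rested mostly on single cells, as described below. Gzma stood at 5656 CPM in NK-like cells of Vehicle, against 262 CPM in T cell-like cells and 16.8 CPM in plasma cell-like cells, the third class. In Vehicle-OVA the Gzma order was the same at 3898 and 576 CPM, followed by unnamed Foxp3 clusters at 22.7 CPM. Gzmk was the exception among granzymes. It was highest in T cell-like cells in each library, at 32.5, 85.6, 21.5 and 56.9 CPM in the order Vehicle, Vehicle-OVA, Ribavirin and Ribavirin-OVA, against 11.2 to 20.8 CPM in NK-like cells, and the 2 intervals overlapped in Ribavirin. Gzmb was highest in NK-like cells in Vehicle, Ribavirin and Ribavirin-OVA (581, 543 and 644 CPM), while in Vehicle-OVA NK-like cells (455 CPM) overlapped the Foxp3 clusters (462 CPM). Ifng was highest in NK-like cells in Vehicle and Ribavirin, ahead of T cell-like cells. In both OVA libraries it was highest in the Cd163l1 cluster, with the T cell-like class taken whole. Fasl was highest in NK-like cells (184 to 212 CPM), but in both OVA libraries the Cd163l1 cluster, at 156 and 176 CPM, overlapped them.

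Tnfsf10 did not follow the granule genes. In Vehicle and Ribavirin it was highest in ILC2-like cells, type 2 innate lymphoid cells, at 61.5 CPM (25 UMIs in 104 cells) and 49.4 CPM (22 UMIs in 92 cells). These intervals overlapped those of the Foxp3 clusters, at 47.1 and 41.5 CPM. In Vehicle-OVA the Foxp3 clusters (57.5 CPM) and NK-like cells (51.0 CPM) overlapped at the top of the order, and in Ribavirin-OVA an unnamed cluster led by Calca, Il1rl1, Il10 and Il13 (78.3 CPM) overlapped NK-like cells (61.6 CPM). Among lymphocytes, TRAIL transcripts were thus spread over several classes whose levels could not be told apart at this depth. They were not confined to lymphocytes. Over all libraries Tnfsf10 stood at 50.9 CPM in cluster 19, the unnamed cluster scored as endothelial (180 UMIs in 323 cells). In mast cell-like cells it stood at 50.5 CPM (35 UMIs in 81 cells). The other clusters outside lymphocytes stood at 24.1 CPM or lower. Levels of cluster 19 by library are not given here.

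**Figure D2:**
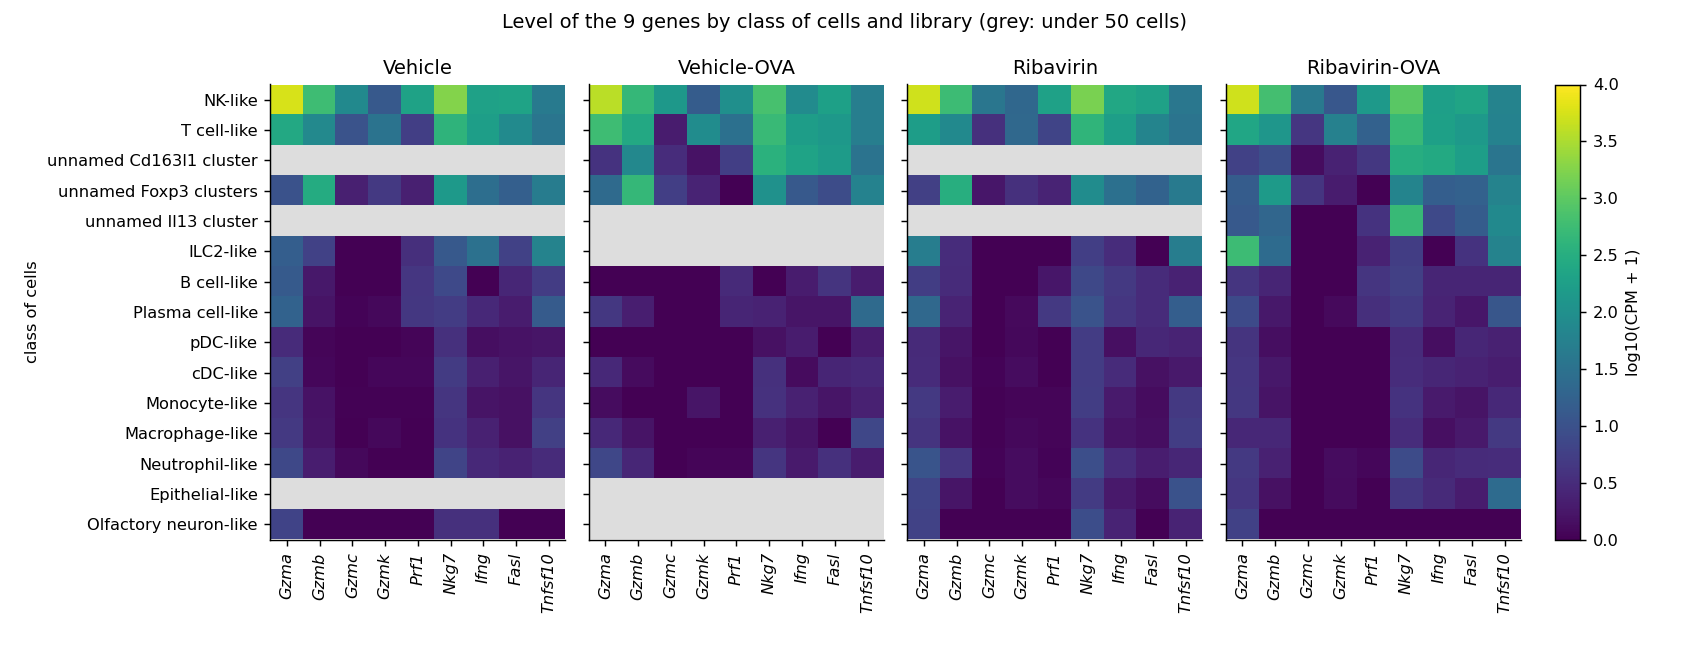
Level of each member (columns), as log10(CPM + 1) on a colour scale, in each class of cells (rows), with 1 panel per library. Grey marks classes with fewer than 50 cells, and NK-like cells hold the highest levels of Gzma, Gzmc, Prf1 and Nkg7 in all 4 libraries. The Gzmc levels of NK-like cells in Vehicle and Vehicle-OVA rest mostly on single cells.

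In NK-like cells the members that stood apart with OVA were Nkg7, Ifng and Prf1, all lower under vehicle. The class held 791 Vehicle cells, 186 Vehicle-OVA cells, 702 Ribavirin cells and 215 Ribavirin-OVA cells. Nkg7 stood at 1823 CPM in Vehicle, 685 CPM in Vehicle-OVA, 1572 CPM in Ribavirin and 940 in Ribavirin-OVA. Both OVA libraries were below both libraries without OVA, by 0.376-fold under vehicle (0.347 to 0.406) and by 0.598-fold under ribavirin (0.562 to 0.635). Ifng stood at 195, 82.7, 253 and 180 CPM in the same order of libraries. Its OVA fold was 0.423 under vehicle (0.334 to 0.531) and 0.711 under ribavirin (0.615 to 0.819). Prf1 stood at 199.8, 98.1, 192 and 144 CPM, an OVA fold of 0.491 under vehicle (0.394 to 0.606) and of 0.749 under ribavirin (0.637 to 0.879). These 3 of 9 members were past 2-fold lower with OVA under vehicle and none was past 2-fold higher, where 4.61% of the 8822 genes measured were past 2-fold lower and 13.7% higher. Under ribavirin none of the 9 was past 2-fold in either direction, against 3.33% of genes lower and 8.58% higher. The median log2 ratio of the members was -0.35 under vehicle and 0.04 under ribavirin, and that of all genes 0.34 and 0.30.

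The other granule and ligand genes of NK-like cells were not past 2-fold with OVA in either pair. Gzma stood at 5656 CPM in Vehicle, 3898 CPM in Vehicle-OVA, 5056 CPM in Ribavirin and 5211 in Ribavirin-OVA, lowest in Vehicle-OVA. Its OVA fold was 0.689 under vehicle (0.666 to 0.713) and 1.03 under ribavirin (1.00 to 1.06). Gzmb stood at 581, 455, 543 and 644 CPM, lowest in Vehicle-OVA, with OVA folds of 0.783 and 1.19. Gzmk stood at 12.1, 13.5, 20.8 and 11.2 CPM, with OVA folds of 1.11 (0.554 to 2.09) and 0.539 (0.291 to 0.942). Fasl was near level in all 4 libraries, at 208, 184, 190 and 212 CPM, with OVA folds of 0.882 (0.747 to 1.04) and 1.12 (0.968 to 1.28). Tnfsf10 stood at 43.5, 51.0, 37.7 and 61.6 CPM, with OVA folds of 1.17 (0.837 to 1.62) and 1.63 (1.22 to 2.17).

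Several features of the cells moved with these NK-like values. NK-like cells without OVA were of cluster 28 (62.2 and 71.7%), with Gzma at 9372 and 7063 CPM, and cluster 34 (36.4 and 27.1%), with Gzma at 259 and 476 CPM, whereas those with OVA were almost all of cluster 35, with Gzma at 3771 and 5197 CPM. Cells with a Cd3e, Cd3d or Cd3g UMI, transcripts of the T cell receptor complex, made up 36.2% of NK-like cells in Vehicle, 55.4% in Vehicle-OVA, 28.6% in Ribavirin and 37.2% in Ribavirin-OVA. Their mean share of mitochondrial UMIs was 3.04, 4.86, 2.98 and 4.85%, and their median UMI number 3549, 4641, 4052 and 5437. The part of clusters, mitochondrial share and depth in the differences was not tested. A gate chosen after these values were seen took, from all lymphocyte clusters, the cells with a UMI of the NK receptors Ncr1 or Klrb1c and none of the 3 Cd3 genes, which gave 477, 78, 473 and 122 cells. In it Nkg7 stood at 2264, 922, 1791 and 1154 CPM (OVA folds 0.407 and 0.644), Ifng at 259, 120, 278 and 178 CPM (0.464 and 0.639) and Prf1 at 292, 176, 252 and 206 CPM (0.604 and 0.815). Nkg7 and Ifng thus stayed past 2-fold lower under vehicle in the gate, where 5.77% of genes were, and Prf1 did not. In the gate Gzma stood at 8265, 6683, 6539 and 7885 CPM and Gzmb at 889, 766, 732 and 803 CPM. Vehicle-OVA was thus not the lowest library in either gene there, and its intervals overlapped those of Ribavirin. Over the processing alternatives the log2 OVA ratio under vehicle ran from -1.84 to -0.83 for Nkg7 and from -1.67 to -0.75 for Ifng, but from -1.36 to 0.11 for Prf1 and from -0.89 to 0.59 for Gzma, so the last 2 changed direction.

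**Figure D3:**
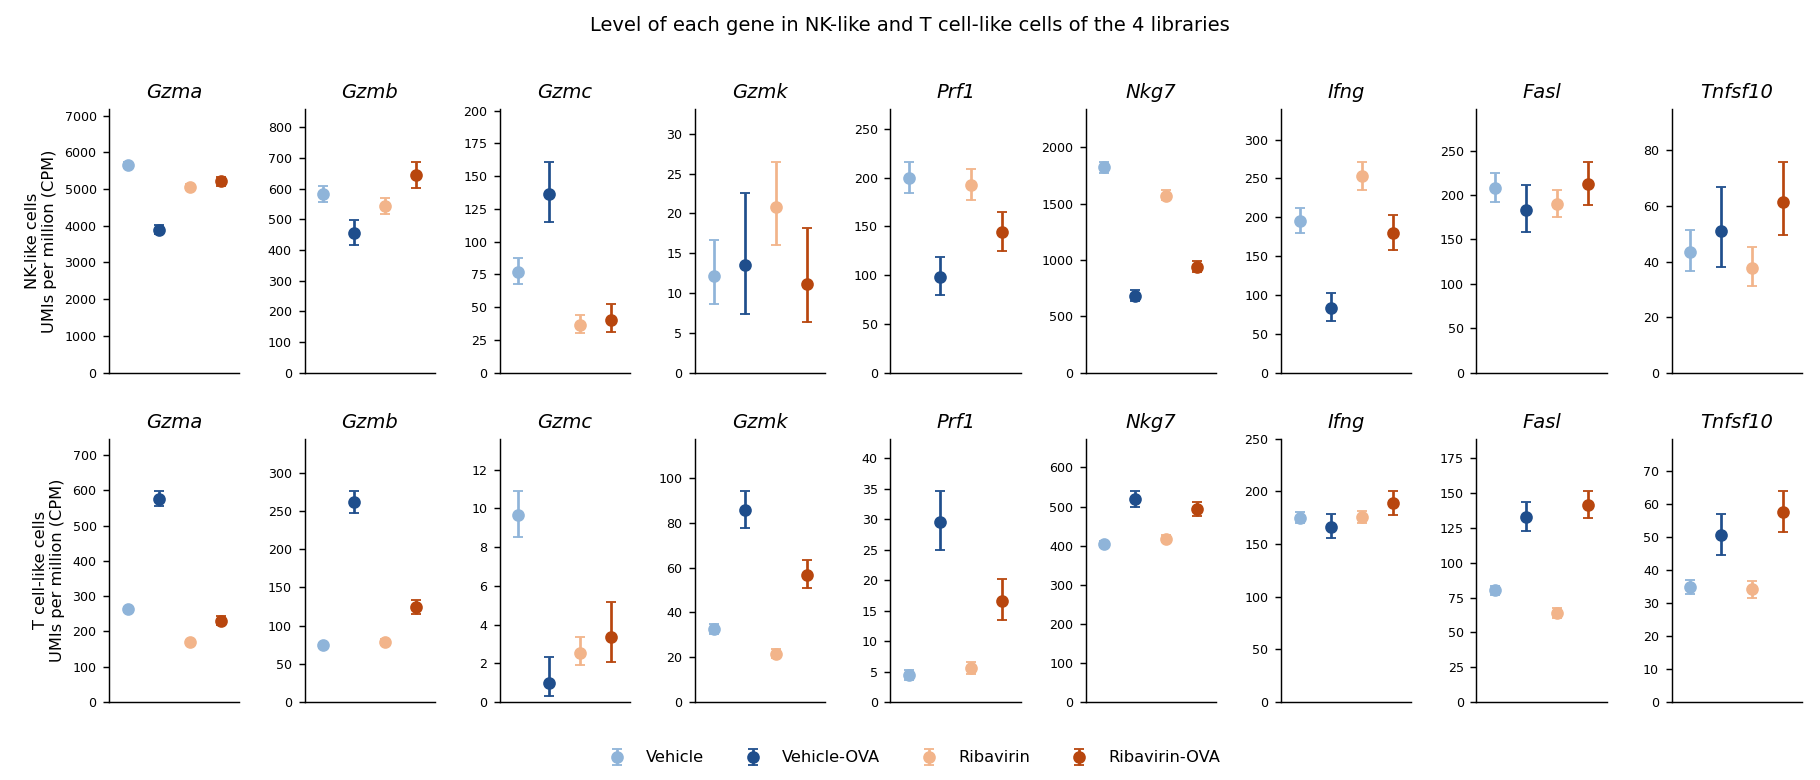
Level of each member in CPM (linear axes from 0) in NK-like and T cell-like cells of the 4 libraries, with bars for exact 95% Poisson intervals that cover counting error only. Nkg7 in NK-like cells is lower in both OVA libraries (685 and 940 CPM) than in those without OVA (1823 and 1572 CPM).

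Between ribavirin and vehicle, Ifng with OVA was the member of NK-like cells that was past 2-fold higher. Without OVA the members' folds of ribavirin over vehicle ran from 0.477 for Gzmc to 1.71 for Gzmk, and Gzmc, whose UMIs came from few cells, was the 1 member past 2-fold lower, where 0.113% of genes were past 2-fold lower and 0.986% higher. With OVA, Ifng was 2.17-fold higher in Ribavirin-OVA than in Vehicle-OVA (1.70 to 2.81), Gzmc was 0.297-fold, and the other 7 lay between 0.832 and 1.47. Here 2.77% of genes were past 2-fold higher and 2.71% lower. In the NK gate the Ifng fold with OVA was 1.48.

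Granule genes of T cell-like cells were higher with OVA. The class held 5348 Vehicle cells, 890 Vehicle-OVA cells, 3453 Ribavirin cells and 945 Ribavirin-OVA cells. Prf1 stood at 4.43 CPM in Vehicle, 29.5 CPM in Vehicle-OVA, 5.53 CPM in Ribavirin and 16.6 in Ribavirin-OVA, higher in both OVA libraries. Its OVA fold was 6.66 under vehicle (5.20 to 8.54) and 3.00 under ribavirin (2.27 to 3.95). Without OVA the T cell-like interval of Prf1 overlapped that of plasma cell-like cells, at 3.44 and 3.63 CPM, so at this depth it did not stand above that class. Gzmk stood at 32.5, 85.6, 21.5 and 56.9 CPM, an OVA fold of 2.64 under vehicle (2.34 to 2.96) and of 2.64 under ribavirin (2.29 to 3.05). Gzmb stood at 74.4, 261, 78.3 and 124 CPM, with OVA folds of 3.51 (3.28 to 3.77) and 1.58 (1.45 to 1.73). Gzma stood at 262, 576, 169 and 231 CPM, with OVA folds of 2.20 (2.10 to 2.29) and 1.36 (1.28 to 1.45). Ribavirin-OVA was thus above Ribavirin in Gzma but below Vehicle. Of the 9 members, 4 (Gzma, Gzmb, Gzmk and Prf1) were past 2-fold higher and 1 (Gzmc) past 2-fold lower with OVA under vehicle, where 14.1% of the 11558 genes measured were past 2-fold higher and 3.93% lower. Under ribavirin 3 (Gzmk, Prf1 and Fasl) were past 2-fold higher and none lower, against 10.7% and 4.3% of genes. The members' median log2 ratio was 0.72 and 0.66, and that of all genes 0.37 and 0.34.

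The ligand genes, Nkg7 and Ifng of T cell-like cells had OVA folds under 2 under vehicle. Fasl stood at 80.1, 133, 63.7 and 141 CPM, with OVA folds of 1.66 (1.52 to 1.81) and 2.22 (2.03 to 2.42). Tnfsf10 stood at 34.8, 50.4, 34.1 and 57.4 CPM, with OVA folds of 1.45 (1.26 to 1.67) and 1.68 (1.48 to 1.92). Nkg7, which in NK-like cells was lower with OVA, stood at 405, 519, 418 and 494 CPM, with OVA folds of 1.28 and 1.18. Ifng was level, at 175 CPM in Vehicle, 167 CPM in Vehicle-OVA, 176 CPM in Ribavirin and 189 in Ribavirin-OVA, with OVA folds of 0.952 (0.883 to 1.02) and 1.07 (1.00 to 1.15).

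**Figure D4:**
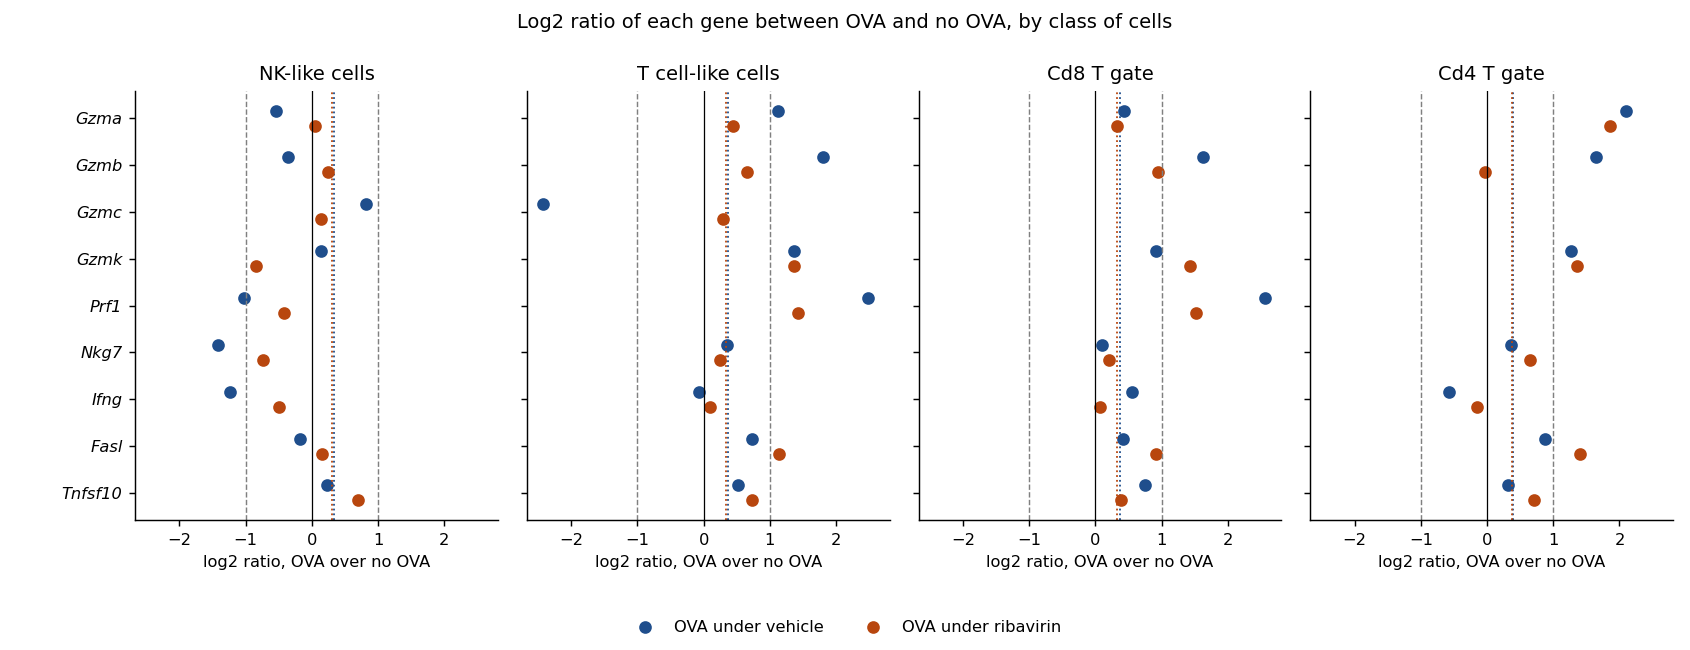
Log2 ratio of each member with OVA over without, under vehicle (blue) and under ribavirin (orange), in NK-like cells, T cell-like cells and the Cd8 and Cd4 gates of the T cell-like class. Points are single values with no error bar, genes with under 50 UMIs are left out, dashed lines mark 2-fold and dotted lines the median of all genes, and Prf1 lies past 2-fold higher in T cell-like cells (6.66 and 3.00-fold) but not in NK-like cells (0.491 and 0.749-fold).

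The T cell-like class differed in makeup between the libraries. Without OVA it consisted mostly of clusters 23, 24, 25, 26 and 31, with cluster 37, led by Mup5 and Obp1a, almost all from Ribavirin (244 cells, with 1 from Vehicle and 3 from Ribavirin-OVA). With OVA it consisted mostly of clusters 29, 32 and 39, and cluster 31 gave 2.58% of it in Vehicle-OVA and 2.96% in Ribavirin-OVA. Cluster 24, led by Cd163l1, gave 1146 cells of Vehicle and 895 of Ribavirin, while the OVA cells led by the same gene formed cluster 30 (351 cells of Vehicle-OVA and 562 of Ribavirin-OVA), which had a marker of another class and no T cell marker among its 10 leading genes and so lay outside the class. Adding cluster 30 to the class, an alternative chosen after seeing the data, left Prf1 5.21-fold and 2.23-fold higher with OVA under vehicle and ribavirin, Gzmb 2.86 and 1.10-fold, Gzmk 1.96 and 1.80-fold, Gzma 1.63 and 0.93-fold and Fasl 1.73 and 2.40-fold. Members past 2-fold higher were then 2 of 9 in each pair, Gzmb and Prf1 under vehicle (14% of genes) and Prf1 and Fasl under ribavirin (10.6% of genes). A gate of cells from all lymphocyte clusters with UMIs of at least 2 Cd3 genes and no NK receptor UMI (T gate), also chosen after seeing the data, gave OVA folds of 5.26 and 2.39 for Prf1, with 13.5 and 9.17% of genes past 2-fold higher in the 2 pairs, 2.70 and 0.808 for Gzmb, 1.62 and 0.979 for Gzma, 1.82 and 1.56 for Gzmk and 1.60 and 2.11 for Fasl. Leaving out cluster 24 instead put Gzmk at 38.8, 85.8, 28.0 and 57.1 CPM (OVA folds 2.21 and 2.04), while Gzma was 1.85 and 1.06-fold. Gzmk was thus past 2-fold in both pairs without cluster 24, but not with cluster 30 added or in the T gate, and Gzma was past 2-fold under none of these 3 definitions.

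The clusters differed widely in the members. Without OVA the granule genes lay in cluster 25, led by Ccl5, Nkg7, Gzmk and the CD8 genes, with Gzma at 1419 CPM in Vehicle and 986 CPM in Ribavirin, Nkg7 at 1610 and 1418 CPM, Ifng at 300 and 382 CPM and Prf1 at 19.7 and 19.1 CPM. Cluster 23, led by Il17a, the cytokine of type 17 cells, had Gzma at 8.29 and 10.5 CPM but Ifng at 174 and 187 CPM. With OVA, cluster 39 (112 cells of Vehicle-OVA and 41 of Ribavirin-OVA) had Gzma at 1707 and 621 CPM, Gzmb at 814 and 694 CPM, Prf1 at 132 and 149 CPM and Nkg7 at 1475 and 2097 CPM. Its leading genes held the inhibitory receptors and exhaustion-associated genes Lag3, Tox and Pdcd1. They also held Klrc1, Cd8a, Eomes and the members Gzmb, Gzmk and Nkg7. A member among the leading genes of a cluster is high there by that choice. Cluster 32, led by Ms4a4b and Gzmk, had Gzma at 887 and 455 CPM, Gzmk at 147 and 128 CPM and Ifng at 347 and 292 CPM. Cluster 29, led by Tcf7, a factor of naive and memory cells, had Gzma at 9.34 and 5.66 CPM. Since the members were left out of the genes used for clustering, their levels did not shape these clusters directly, but the genes that move with them did, and no cluster is set against the rest here.

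Within the T cell-like class, cells with a Cd8a or Cd8b1 UMI and no Cd4 UMI (Cd8 gate, 871 Vehicle cells, 145 Vehicle-OVA cells, 705 Ribavirin cells and 133 Ribavirin-OVA cells) had the highest granule gene levels. Prf1 stood at 18.1, 112, 17.7 and 52.6 CPM, and its OVA fold was 6.17 under vehicle (4.64 to 8.26) and 2.98 under ribavirin (2.06 to 4.29). Gzmb stood at 280, 869, 254 and 492 CPM, with OVA folds of 3.11 (2.86 to 3.38) and 1.94 (1.74 to 2.16). Gzma stood at 1180, 1596, 619 and 776 CPM, highest in the 2 vehicle libraries, with OVA folds of 1.35 and 1.25. Ifng stood at 221, 326, 258 and 271 CPM, with OVA folds of 1.47 (1.30 to 1.66) and 1.05 (0.917 to 1.20), but 1 cell held 101 of the 368 Ifng UMIs of Vehicle-OVA, and without the top cell of each library Vehicle stood at 216 CPM and Vehicle-OVA at 238 CPM. Of the 8 members measured in this gate, 2 were past 2-fold higher with OVA in each pair, Gzmb and Prf1 under vehicle (15.1% of genes) and Gzmk and Prf1 under ribavirin (13.8% of genes). Leaving out the cells of cluster 24, which bore Cd8 UMIs in the libraries without OVA, gave OVA folds of 5.50 and 2.23 for Prf1, 2.50 and 1.39 for Gzmb, 1.48 and 1.71 for Gzmk and 1.06 and 0.792 for Gzma.

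Cells with a Cd4 UMI and no Cd8 UMI (Cd4 gate, 2491, 546, 1457 and 638 cells) had less of the granule genes than the Cd8 gate and a larger OVA fold of Gzma. Gzma stood at 30.4 CPM in Vehicle, 134 CPM in Vehicle-OVA, 25.9 CPM in Ribavirin and 96.2 in Ribavirin-OVA, both OVA libraries above both others, with OVA folds of 4.39 (3.83 to 5.04) and 3.72 (3.15 to 4.39). Gzmk stood at 11.3, 28.6, 12.1 and 32.7 CPM, with OVA folds of 2.52 (1.92 to 3.30) and 2.70 (2.08 to 3.51). Gzmb stood at 14.9, 48.8, 22.2 and 21.8 CPM, so that Vehicle-OVA alone was high (OVA folds 3.28 and 0.981). Fasl stood at 65.2, 120, 49.2 and 132 CPM, with OVA folds of 1.84 (1.63 to 2.08) and 2.68 (2.36 to 3.05). Ifng stood at 165, 111, 176 and 158 CPM, with OVA folds of 0.673 (0.599 to 0.754) and 0.901 (0.821 to 0.989), while Nkg7 stood at 144, 186, 169 and 266 CPM. Prf1 and Gzmc had under 50 UMIs in this gate and were not compared. Of the 7 members measured, 3 were past 2-fold higher with OVA in each pair (Gzma and Gzmk in both, with Gzmb under vehicle and Fasl under ribavirin), where 16.6% and 13.1% of genes were. The cells of the class in neither gate (1986, 199, 1291 and 174 cells) had Gzma at 151, 820, 84.0 and 226 CPM. Their Gzmb stood at 62.2, 223, 45.0 and 169 CPM, so both genes were higher in both OVA libraries there.

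Ribavirin with OVA had lower granule gene levels in T cell-like cells than vehicle with OVA. Gzma was 0.401-fold (0.376 to 0.428), at 231 against 576 CPM, and Gzmb 0.474-fold (0.433 to 0.519), at 124 against 261 CPM. Prf1 was 0.562-fold (0.432 to 0.730) and Gzmk 0.665-fold (0.575 to 0.768), whereas Nkg7, Ifng, Fasl and Tnfsf10 lay between 0.952 and 1.14. Gzma and Gzmb were 2 of 9 members past 2-fold lower and Gzmc (20 UMIs against 5) the 1 past 2-fold higher, where 2.09% of genes were past 2-fold lower and 1.25% higher. The 2 genes stayed past 2-fold lower with cluster 30 added, at 0.367 and 0.405-fold, where 1.72% of genes were, and in the T gate, at 0.386 and 0.375-fold, where 1.54% were. In the Cd8 gate the folds were 0.486 for Gzma, 0.566 for Gzmb and 0.472 for Prf1. The share of the class in cluster 39, the T cell-like cluster highest in Gzma with OVA, was 12.6% in Vehicle-OVA and 4.34% in Ribavirin-OVA. Without OVA, Gzma was 0.646-fold (0.620 to 0.673) and Gzmk 0.664-fold (0.591 to 0.744) in Ribavirin against Vehicle, and Gzmb (1.05), Nkg7 (1.03) and Ifng (1.00) were level. There Gzmc was the 1 member past 2-fold lower and none was past 2-fold higher, where 0.0692% of genes were lower and 0.9% higher.

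Gzmb was high in the Foxp3 clusters, clusters 27 and 33, which were led by Foxp3, the factor of regulatory T cells, and stayed unnamed by the marker rule (626, 144, 514 and 221 cells). It stood at 288 CPM in Vehicle, 462 CPM in Vehicle-OVA, 324 CPM in Ribavirin and 151 in Ribavirin-OVA, above T cell-like cells of the same library each time. Its OVA fold was 1.60 under vehicle (1.40 to 1.84) and 0.467 under ribavirin (0.390 to 0.557), and the fold of ribavirin over vehicle was 1.12 without OVA and 0.328 with OVA. In Vehicle-OVA its interval overlapped that of NK-like cells (455 CPM). Of its usual partners Prf1 was nearly absent and Gzma and Ifng were low, while Nkg7 was present. Prf1 gave 3, 0, 4 and 0 UMIs in these clusters, where 0 UMIs allow up to 4.54 CPM in Vehicle-OVA and 3.09 CPM in Ribavirin-OVA. Gzma stood at 4.77 to 22.7 CPM, Ifng at 12.1 to 28.6 CPM and Nkg7 at 141, 103, 88.1 and 62.8 CPM. Low Prf1 and Gzma were not particular to these cells. Over all libraries T cell-like clusters 23, 26 and 29 had Prf1 at 0.268, 0.960 and 0.181 CPM. Their Gzma stood at 9.04, 7.04 and 7.44 CPM and their Nkg7 at 86.9, 97.7 and 68.2 CPM. In the Foxp3 clusters, cells without OVA were mostly of cluster 27 and those with OVA almost all of cluster 33. Within cluster 33 Gzmb stood at 233 CPM in the 119 cells of Vehicle (160 to 327) and 462 CPM in the 144 of Vehicle-OVA (411 to 517), whereas under ribavirin the cluster held 13 cells of Ribavirin, too few to set beside the 218 of Ribavirin-OVA.

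The unnamed Cd163l1 cluster of the OVA libraries (cluster 30) carried Ifng, Fasl and Nkg7, with little Gzma. It made up 2.17% of Vehicle-OVA and 6.63% of Ribavirin-OVA, and 80.1% of its cells had a Cd3e UMI and 93.2% a Cd3g UMI. Ifng stood at 206 CPM in Vehicle-OVA and 271 CPM in Ribavirin-OVA, above the other classes of those libraries taken whole. High Ifng was not particular to the cluster. Over all libraries it stood at 247 CPM in cluster 30, against 299 CPM in cluster 32 and 308 CPM in cluster 39 of the T cell-like class. Fasl stood at 156 and 176 CPM and Nkg7 at 363 and 309 CPM, whereas Gzma stood at 2.84 and 4.84 CPM and Prf1 at 4.55 and 3.46 CPM. Gzmb stood at 73.3 CPM in Vehicle-OVA, but 89 of its 129 UMIs there came from 1 cell, without which it was 22.9 CPM, and at 8.30 CPM in Ribavirin-OVA. The cluster held 21.9 and 29.0% of the Fasl UMIs of the 2 libraries. Another unnamed cluster of the OVA libraries, cluster 38 (49 cells of Vehicle-OVA and 107 of Ribavirin-OVA), had Cd3e and Cd4 UMIs in 94.2 and 94.9% of its cells and was led by type 2 genes. It had Nkg7 at 578 and 487 CPM and Tnfsf10 at 84.6 and 78.3 CPM, and held 6.64 and 10.9% of the Nkg7 UMIs of those libraries.

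Mast cell-like cells carried granzyme transcripts. There were 81 such cells (13, 5, 17 and 46 by library), with the mast cell proteases Mcpt1, at 59412 CPM, and Cpa3, at 3217 CPM, and with a Cd3e UMI in 2.47% of them. Mcpt8, a protease of basophils, stood at 515 CPM, with a UMI in 34 cells. Gata2, Cyp11a1 and Ms4a2 of the basophil marker list were among the leading genes of the cluster. The class may thus hold basophils too, and which of its cells bore the granzymes was not tested. Over the 4 libraries Gzmb stood at 2216 CPM, from 1535 UMIs in 28 cells, and Gzma at 1421 CPM in 13 cells, while Gzmk, Prf1 and Fasl had 0 UMIs, which allows up to 4.33 CPM. The 46 cells of Ribavirin-OVA held 42.0% of that library's Gzmb UMIs and 9.36% of its Gzma UMIs, and 1 cell alone held 780 of their 1407 Gzmb UMIs. With all cells of a library summed, Gzmb was 1.44-fold higher in Ribavirin-OVA than in Vehicle-OVA and 1.38-fold higher than in Ribavirin, and without mast cell-like cells these folds were 0.867 and 0.806. In ILC2-like cells of Ribavirin-OVA, 345 of 389 Gzma UMIs likewise came from 1 cell, and Gzma stood at 554 CPM with it and 65.3 CPM without it.

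Gzmc was set by single cells. In NK-like cells it stood at 77.1 CPM in Vehicle, 137 CPM in Vehicle-OVA, 36.7 CPM in Ribavirin and 40.6 in Ribavirin-OVA, but 1 cell held 213 of 241 UMIs in Vehicle and 135 of 142 in Vehicle-OVA. Without the top cell of each library the levels were 8.99, 6.78, 19.9 and 22.5 CPM, an order unlike the first. In T cell-like cells of Vehicle, 218 of 259 Gzmc UMIs came from 1 cell, and the level was 9.63 CPM with it and 1.53 CPM without it. The folds of Gzmc above therefore describe a handful of cells.

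Over all cells of a library, where fewer cells of a type and less RNA per cell cannot be told apart, Vehicle-OVA was the lowest library in Gzma, Nkg7 and Ifng. Gzma stood at 195 CPM in Vehicle, 90.9 CPM in Vehicle-OVA, 145 CPM in Ribavirin and 135 in Ribavirin-OVA. Nkg7 stood at 133, 56.0, 104 and 79.8 CPM and Ifng at 42.4, 16.8, 33.9 and 29.5 CPM in the same order. These were the 3 of 9 members past 2-fold lower with OVA under vehicle, where 5.71% of genes were, and none of the 9 was past 2-fold with OVA under ribavirin, where 8.03% of genes were past 2-fold higher and 1.18% lower. Fasl stood at 22.4, 15.5, 14.8 and 22.7 CPM and Tnfsf10 at 12.8, 9.93, 10.2 and 16.6 CPM.

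Detection in single cells was compared after each cell was brought to 1 depth. Cells thinned to 1000 UMIs each, with shallower cells left out, had a Gzma UMI in 58.8% of NK-like cells in Vehicle, 38.7% in Vehicle-OVA, 63.2% in Ribavirin and 59.8% in Ribavirin-OVA, and the shares before thinning were 64.5, 43.0, 68.8 and 67.9%. Nkg7 was found in 74.5, 48.9, 70.5 and 53.7% of thinned NK-like cells, lower in both OVA libraries, and Prf1 in 17.5, 8.60, 16.4 and 16.4%, lower in Vehicle-OVA only. In T cell-like cells Gzma was found in 3.79, 9.97, 3.42 and 5.42% of cells, Gzmb in 3.46, 7.59, 3.45 and 5.95% and Gzmk in 2.99, 7.47, 2.29 and 5.21%, each higher with OVA. Fasl was found in 8.15, 11.6, 6.28 and 12.0% of T cell-like cells and Ifng in 11.8, 9.63, 11.6 and 12.5%. In the Cd8 gate Gzma was found in 15.8, 31.2, 9.36 and 16.5% of cells and Gzmb in 12.8, 29.2, 8.37 and 24.1%. B cell-like cells, taken as a class that should lack these granzymes, had Gzma in 1.61, 0, 0.613 and 0% of thinned cells and Gzmb in 0, 0, 0.307 and 0%, where 0 cells allow shares of up to 0.968% in Vehicle, 1.27% in Vehicle-OVA and 2.78% in Ribavirin-OVA. Their median UMI numbers were 3049, 3483, 3257 and 4181, against 4081, 4774.5, 4859 and 5388 in T cell-like cells.

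Granule genes were found more often in cells that held another of them, though most cells with Gzma had no Gzmb UMI at this depth. Each class pools clusters that differ in both genes, and the part of this mix was not tested. Over all libraries Gzma and Gzmb stood at 8151 and 832 CPM in NK-like cluster 28, against 351 and 78.9 CPM in cluster 34. In T cell-like cluster 25 they stood at 1252 and 328 CPM, against 9.04 and 4.56 CPM in cluster 23. Among thinned NK-like cells, Gzmb was found in 44.9% of cells with a Gzma UMI and 4.02% of those without in Vehicle, 40.3 and 1.75% in Vehicle-OVA, 35.1 and 2.33% in Ribavirin, and 43.8 and 3.49% in Ribavirin-OVA. Among T cell-like cells it was found in 30.2% of cells with Gzma and 2.40% of those without in Vehicle, 33.0 and 4.78% in Vehicle-OVA, 31.4 and 2.46% in Ribavirin, and 31.4 and 4.49% in Ribavirin-OVA. The share of Gzma cells with Gzmb in T cell-like cells thus lay within 30.2 to 33.0% in all 4 libraries. Prf1 was found in 35.5 to 42.3% of NK-like cells with Gzmb and 3.23 to 10.6% of those without. Ifng in T cell-like cells depended on the library, with 13.4, 22.7, 16.1 and 27.5% among cells with Gzma and 11.7, 8.18, 11.4 and 11.7% among those without. Fasl was found in 19.5 to 27.8% of NK-like cells with Gzma and 6.50 to 9.30% of those without.

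**Figure D5:**
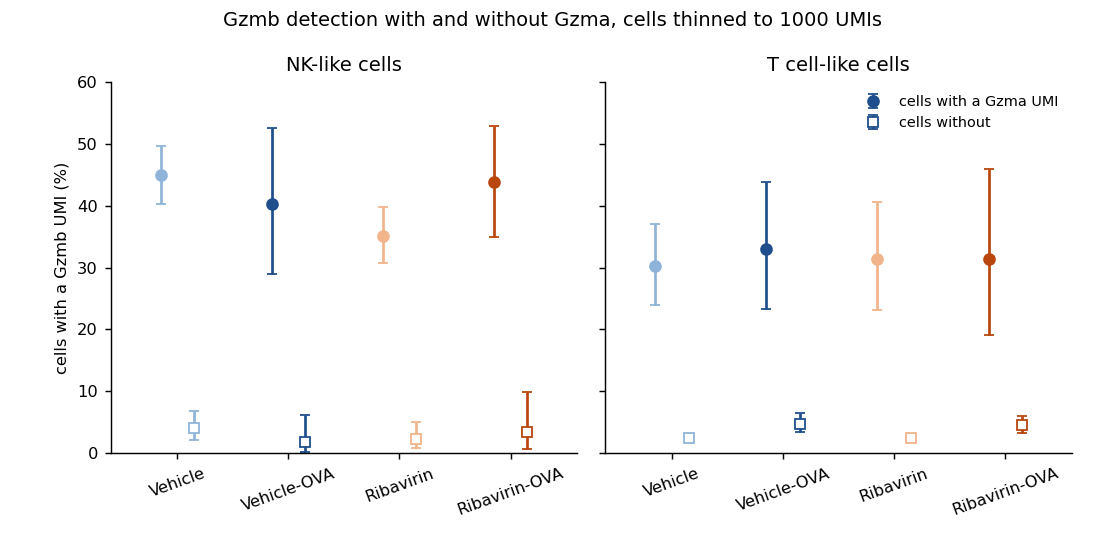
Share of cells with a Gzmb UMI (percent, from 0) among cells with and without a Gzma UMI, after thinning to 1000 UMIs, with exact 95% binomial (Clopper-Pearson) intervals. In T cell-like cells the share with Gzma lies between 30.2 and 33.0% and the share without between 2.40 and 4.78%.

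T cell-like cells with cell cycle transcripts had less Fasl and Ifng per UMI. Thinned cells with at least 2 UMIs of cell cycle genes numbered 347 in Vehicle, 33 in Vehicle-OVA, 220 in Ribavirin and 48 in Ribavirin-OVA. Their Fasl level over that of T cell-like cells with no such UMI was 0.503, 0.751, 0.415 and 0.521-fold, with an interval that reached 1.01 in Vehicle-OVA, and that of Ifng 0.816, 0.712, 0.621 and 0.608-fold. Gzma was 1.48, 2.48, 2.04 and 1.14-fold, with an interval from 0.980 in Ribavirin-OVA, whereas Gzmb was 1.08, 3.78, 1.84 and 0.720-fold and so differed in direction. The Gzma fold was not shared by the gates. It was 1.18 and 1.92 in the Cd8 gate of Vehicle and Ribavirin. In the Cd4 gate it was 0.245 in Vehicle, 0.0973 in Ribavirin (5 UMIs in cycling cells) and 0.0256 in Ribavirin-OVA (1 UMI). NK-like cells held fewer than 20 such cells per library.

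Across 9 classes in each of 4 libraries (36 points, which share libraries and hence depth), the genes with the pattern most like Gzma were Gzmb (Pearson r = 0.972), Nkg7 (0.969) and Eomes (0.967). For Gzmb they were Ctla2a (0.987), Klrg1 (0.986) and Nkg7 (0.981), and for Ifng they were Skap1 (0.986), Apol7e (0.981) and Gm29243 (0.981). For Tnfsf10 they were Cysltr2 (0.946), Tigit (0.936) and Acoxl (0.928). These correlations of log2(CPM + 1) over 12506 genes are descriptions.

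A list of 48 other genes of the pathway, all found in the files, was read in the same way, with those of at least 50 UMIs compared. Of these 41 were measured in T cell-like cells, of which 12 were past 2-fold higher and 1 lower with OVA under vehicle, and 5 higher and 1 lower under ribavirin, beside the 14.1 and 3.93% and the 10.7 and 4.3% of all genes given above. In NK-like cells 36 were measured, of which 3 were past 2-fold higher and none lower with OVA under vehicle, where 13.7% of all genes were higher and 4.61% lower, and none in either direction under ribavirin, where 8.58% were higher and 3.33% lower. Past 2-fold in both OVA pairs of T cell-like cells were 4 genes of the list that were higher and 1 that was lower. Eomes, a T-box factor of killer lymphocytes, stood at 9.86 CPM in Vehicle, 45.5 CPM in Vehicle-OVA, 7.36 CPM in Ribavirin and 47.0 in Ribavirin-OVA, both OVA libraries above both others. Il12rb2, a chain of the interleukin 12 receptor, stood at 5.91, 28.3, 7.84 and 18.4 CPM, and with cluster 30 added its fold under ribavirin was 1.85. Lyst, a regulator of lysosome-like granules, stood at 22.9, 77.7, 24.5 and 56.7 CPM. Over all cells of a library Lyst stood at 75.0, 224, 67.8 and 102 CPM, also highest in Vehicle-OVA. The part of RNA from other cells in its T cell-like values was not tested. Serpinb9, an inhibitor of granzyme B, stood at 33.1, 85.8, 37.8 and 81.3 CPM. Cxcl9, a chemokine induced by interferon gamma, stood at 12.2, 1.38, 5.63 and 1.67 CPM, lower with OVA. Over all cells of a library it stood far higher, at 296, 41.6, 159 and 47.2 CPM, and it was a leading gene of a monocyte-like cluster. Whether its UMIs in T cell-like cells were RNA from other cells was not tested.

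Of the 5 transcription factors of the list, 3 were past 2-fold higher with OVA under vehicle in T cell-like cells and 2 under ribavirin, where 14.1 and 10.7% of genes were. Tbx21 (T-bet) stood at 19.9, 37.8, 19.5 and 53.2 CPM among T cell-like cells and at 101, 97.1, 114 and 147 CPM in NK-like cells. Runx3 stood at 199, 325, 197 and 276 CPM, Zeb2 at 78.3, 209, 84.2 and 123 CPM, and Prdm1 (Blimp-1) at 37.3, 82.1, 44.8 and 90.2 CPM among T cell-like cells. Over all cells of a library Zeb2 stood at 276, 1029, 217 and 395 CPM, above its T cell-like level each time. The part of RNA from other cells in the T cell-like Zeb2 values was not tested. In NK-like cells Eomes stood at 194, 282, 244 and 484 CPM, Runx3 at 354, 522, 363 and 522 CPM, Zeb2 at 135, 112.5, 119 and 135 CPM and Prdm1 at 24.0, 37.5, 29.4 and 57.4 CPM. None of these 5 factors was lower with OVA in both pairs in NK-like cells, where Nkg7, Ifng and Prf1 were.

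Of the inhibitors of granzymes and related serpins, Serpinb6b stood at 31.7, 81.7, 36.2 and 53.2 CPM among T cell-like cells, higher with OVA like Serpinb9, and Serpina3g at 76.1, 49.8, 94.5 and 49.9 CPM. With cluster 30 added Serpina3g stood at 76.3, 100.4, 94.4 and 91.3 CPM, so that its direction turned under vehicle. In NK-like cells Serpinb9 stood at 471, 424, 451 and 577 CPM, Serpinb6b at 408, 315, 426 and 359 CPM and Serpina3g at 162, 106, 185 and 131 CPM. Of the receptors of the ligands, Ifngr1, a chain of the interferon gamma receptor, stood at 536, 968, 526 and 905 CPM among T cell-like cells and at 951, 996, 1045 and 1040 CPM in NK-like cells. Its partner chain Ifngr2 stood at 16.2, 30.1, 13.9 and 20.8 CPM among T cell-like cells. Fas, the receptor of Fas ligand, stood at 41.1, 45.7, 41.4 and 25.8 CPM among T cell-like cells and at 16.6, 34.6, 20.8 and 13.3 CPM in NK-like cells. Of the TRAIL receptors in T cell-like cells, Tnfrsf10b stood at 2.05 to 4.94 CPM, the decoy receptor Tnfrsf22 at 1.64 to 4.02 CPM and the decoy receptor Tnfrsf23 at 1.71, 12.5, 2.60 and 3.52 CPM, highest in Vehicle-OVA. Over all cells of a library Tnfrsf23 stood at 16.9, 124, 20.2 and 17.0 CPM and Fas at 35.7, 131, 37.5 and 33.4 CPM. Both were highest in Vehicle-OVA there, and the part of RNA from other cells in the lymphocyte values was not tested. With ribavirin against vehicle, 0 of the 41 genes were past 2-fold higher and 1 lower in T cell-like cells without OVA, where 0.9% of all genes were higher and 0.0692% lower, and 0 higher and 3 lower with OVA, where 1.25% were higher and 2.09% lower.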

How the data were processed

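CD45+ nasal cells of 4 libraries were measured by droplet-based single-cell RNA sequencing. The authors deposited 1 matrix of raw UMI counts per library (Cell Ranger 5.0.0 and mm10 per the submitters' processing notes). Cells with at least 500 UMIs, at least 200 genes and under 10% mitochondrial UMIs were kept. Doublets were scored against simulated ones, and since the score's own threshold marked 0% of Vehicle-OVA, the cells above the expected rate were removed in each library (3.88 to 11.3% of cells). Cells were clustered by the Leiden method (leidenalg 0.10.2) at resolution 1 on 30 components of 2000 variable genes, without the members and the pathway list. Lymphocytes were then clustered a second time, a step chosen after seeing the data. Classes were named by marker lists, and 1 cluster scored as endothelial and 1 scored as ILC2 but with Cd3e UMIs in over 50% of cells were left unnamed after their genes were seen.

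Counts were summed per class and library and compared as CPM and as log2 ratios with a pseudocount of 1 CPM, leaving out genes whose UMIs in a class came to under 50 over all 4 libraries. Folds are printed without the pseudocount, with exact conditional intervals, and genes past 2-fold are counted on the log2 scale. With 1 library per group no test was made. The scripts were tested on simulated data. The members, markers, pathway list and gates were chosen with earlier results of these data known. The text names all members, of the pathway list the inhibitors, receptors and transcription factors and the genes past 2-fold in both OVA pairs, and the 3 genes most like Gzma, Gzmb, Ifng and Tnfsf10. Sequences are from RefSeq, in which all 9 members were matched. Python 3.11.15, numpy 2.4.6, scipy 1.17.1 and pandas 2.3.3 were used. Cell filters, doublets, resolution, clustering genes, marker classes, depth, pseudocount, minimum count and centring were varied.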

Additional observations from a re-analysis of the deposited data

Results flagged for a closer look

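With 1 library per group, 7 member values had OVA folds on opposite sides of 1 under vehicle and under ribavirin, with both counting intervals clear of 1, and the difference between the 2 folds was not tested. The share of all genes that met the same rule was not counted, so the number is not read as a trait of these genes. Where UMIs are many, the interval clears 1 at folds as near it as 1.03. In NK-like cells Gzma had OVA folds of 0.689 under vehicle and 1.03 under ribavirin, a difference of 0.58 on the log2 scale, and Gzmb had folds of 0.783 and 1.19, a difference of 0.60. Over the 16 processing alternatives the log2 OVA ratio of Gzmb under vehicle ran from -0.69 to 0.76 and kept its sign in 10, and that of Gzma in 12, while under ribavirin both kept it in 13. In the Foxp3 clusters Gzmb went the other way, with OVA folds of 1.60 under vehicle and 0.467 under ribavirin, a difference of -1.77. Over all cells Gzmb had OVA folds of 0.842 and 1.38, a difference of 0.69, and without mast cell-like cells the folds were 0.826 and 0.806, on the same side of 1. Over all cells Gzmk had OVA folds of 0.791 and 1.22, a difference of 0.53, Fasl had folds of 0.692 and 1.53, a difference of 1.09, and Tnfsf10 had folds of 0.774 and 1.62, a difference of 0.99. Neutrophil-like cells made up 58.1% of Vehicle-OVA and 16.6% of Ribavirin-OVA, and their part in the last 4 values was not tested.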

How the results depend on the processing

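Gates and the moves of the Cd163l1-led clusters were added after seeing the data, and the other alternatives were planned. In NK-like cells the log2 OVA ratio of Nkg7 kept its direction in 16 of 16 alternatives under both vehicle (-1.84 to -0.83) and ribavirin (-1.15 to -0.47), whereas Prf1 under vehicle turned to 0.11 with doublets kept and to 0.061 with members used for clustering. In T cell-like cells the OVA ratios under vehicle of Gzma (0.69 to 3.30), Gzmb (1.14 to 3.52), Gzmk (0.84 to 2.88) and Prf1 (1.24 to 3.78) kept their direction in 18 of 18, and under ribavirin Gzma (-0.18 to 2.25) and Gzmb (-0.30 to 1.49) did not.

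The number of members past 2-fold depended on the settings, and where no value is given for an alternative it was within 1.5 times the first one. In NK-like cells it was 3 for OVA under vehicle (2 to 4), and 0 for OVA under ribavirin, but 1 with mitochondrial UMIs under 20%, members used for clustering or each library clustered alone, 2 less the median of all genes and 3 with classes from marker UMIs. For ribavirin without OVA it was 1, but 2 with marker classes or gates and 0 with the mean of single-cell CPM, thinned cells or a pseudocount of 10 CPM. For ribavirin with OVA it was 2 (up to 3), but 1 with at least 1000 UMIs, doublets kept, resolution 0.5, members used for clustering, marker classes, gates or the mean of single-cell CPM. In T cell-like cells it was 5 for OVA under vehicle (up to 7), but 2 with marker classes or gates and 3 with the Cd163l1 cluster added, and 3 for OVA under ribavirin, but 5 with mitochondrial UMIs under 20% or resolution 0.5 or 2. For ribavirin without OVA it was 1, but 2 with each library clustered alone or B cell-like levels subtracted and 0 with marker classes, gates, the mean of single-cell CPM, thinned cells or a pseudocount of 10 CPM. For ribavirin with OVA it was 3 (up to 4), but 1 with at least 1000 UMIs, doublets kept, resolution 0.5, the mean of single-cell CPM or thinned cells. Over all cells it was 3 for OVA under vehicle (5 with the mean of single-cell CPM), 1 for ribavirin without OVA (0 with mitochondrial UMIs under 20% or the mean of single-cell CPM) and 0 for ribavirin with OVA (1 with mitochondrial UMIs under 5%, 7 with the mean of single-cell CPM).

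Gzmc, set by single cells, reversed most often. In NK-like cells its log2 ratio of ribavirin with OVA turned to 0.62 with members used for clustering. In T cell-like cells its OVA ratio under vehicle turned to 1.32 with members used for clustering, its ratio of ribavirin without OVA to 0.51 with mitochondrial UMIs under 20%, 0.25 with marker classes and 0.35 with gates, and its ratio of ribavirin with OVA to -0.43 with mitochondrial UMIs under 5%, -0.69 at resolution 2 and -1.23 with members used for clustering. Beyond the choice of cells, the cause of these changes was not tested. No paired analysis was possible because each group had 1 library, and no replicate could be left out.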
